A study of Mus musculus with 2 samples.

Results

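The stefin A cluster of the mouse is a block of related genes on chromosome 16 that encode small cysteine protease inhibitors, and 9 of the 25697 probes on the bead array measured 8 of its genes. The probes were chosen by name: 4 carried a symbol starting with Stfa (Stfa1, Stfa2 and Stfa3, the last with 2 probes), 4 had Entrez identifiers now named Csta1, Csta2, Csta3 and Cstdc4, and 1 was matched to Cstdc6 by its transcript accession. The group was selected on its CON and KO signals, with the higher Stfa2 signal of the pool labelled KO already known, so its values are given as a description. Cstdc1 and Cstdc2 share the newer name but lie on another chromosome, had no Entrez identifier on the array and were below detection in both pools: Cstdc1 read 135.9 in CON and 146.0 in KO, and Cstdc2 140.9 and 145.0. For Stfa2l1, Cstdc3, Cstdc5 and Gm7260 of the same block no array signal was used here, and they appear by their upstream sequence and position only.

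Stefins are small members of the cystatin superfamily that lack a secretion signal. They sit in the active-site cleft of papain-like proteases such as cathepsins B, H, L and S and block them. In human skin the sole stefin A, cystatin A, is abundant in the upper epidermis and becomes part of the cornified envelope, and its loss causes a peeling skin disorder. Rodents have expanded the gene into a family, and in the mouse several copies are also active in neutrophils and their precursors. What most copies do in mouse epidermis is less well known than the human gene's role.

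Epidermal RNA came from the back skin of C57BL6 pups at postnatal day 5, after dispase had loosened the dermis. The control (CON) pool was VDR fl/fl littermates and the KO pool VDR fl/fl mice carrying a Cre transgene under K14 control, a promoter of basal keratinocytes, so cells in which it was never active would keep their receptor. Both groups carried the floxed alleles, and Cre was in the KO pool only. Each pool held RNA of 3 mice and was hybridised to 1 array, so no spread between mice was measured and no difference could be tested. Precision is limited by there being 2 arrays. Detected here means that the p-value against the array's negative controls was below 0.01 in either pool, and 44.8% of probes met this in CON and 44.4% in KO. Vdr itself, the targeted gene, had 3 probes, which read 1913.0, 1203.7 and 193.0 in CON and 2442.1, 1559.6 and 189.0 in KO. These probes did not bear out the label, and where they lie relative to the deleted part is not known here. Each direction below therefore rests on the label. Keratinocyte markers were detected for 10 of 11 genes measured, with Krt14 at 30158.0 in CON and 33165.4 in KO.

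Most genes of the cluster with an entry in the RefSeq promoter table (GRCm38.p6) share sequence just before their start sites. The upstream sequence is shown here for 6 of the 7 measured genes with an entry. Each line gives the 200 bases before the annotated start, 5′ to 3′ on the gene's own strand, and the capitals mark a pair of widely shared 12-letter words, called near and far by their distance from the start. Csta1 is shown because it holds the far word but not the near one in the bases searched. Cstdc4 is shown because it holds the near word alone as an exact match. It also holds a stretch that differs from the far word at a single base. The far word of Csta1 lies closer to its start than in the other genes shown, and bases past the start were not searched. Csta2 has an entry but holds neither word and is not shown, and Cstdc6 has no entry.
Stfa1, chr16:36276948-36277147, plus strand: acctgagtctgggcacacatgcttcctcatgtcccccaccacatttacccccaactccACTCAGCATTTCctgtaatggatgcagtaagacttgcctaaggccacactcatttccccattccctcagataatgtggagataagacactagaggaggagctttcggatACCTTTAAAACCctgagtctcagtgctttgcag
Stfa2, chr16:36408364-36408563, minus strand: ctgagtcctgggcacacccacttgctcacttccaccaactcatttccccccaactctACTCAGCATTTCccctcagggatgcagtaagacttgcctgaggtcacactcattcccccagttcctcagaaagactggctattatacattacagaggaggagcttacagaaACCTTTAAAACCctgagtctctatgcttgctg
Stfa3, chr16:36455393-36455592, minus strand: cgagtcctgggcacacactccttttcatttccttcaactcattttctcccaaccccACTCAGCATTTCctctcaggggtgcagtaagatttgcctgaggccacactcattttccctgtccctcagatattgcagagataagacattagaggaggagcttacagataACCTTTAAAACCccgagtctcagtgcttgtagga
Csta3, chr16:36210203-36210402, plus strand: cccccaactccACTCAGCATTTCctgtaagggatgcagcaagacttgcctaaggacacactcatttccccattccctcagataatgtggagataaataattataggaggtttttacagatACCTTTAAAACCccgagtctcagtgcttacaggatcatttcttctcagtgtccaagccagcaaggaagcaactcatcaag
Cstdc4, chr16:36184012-36184211, plus strand: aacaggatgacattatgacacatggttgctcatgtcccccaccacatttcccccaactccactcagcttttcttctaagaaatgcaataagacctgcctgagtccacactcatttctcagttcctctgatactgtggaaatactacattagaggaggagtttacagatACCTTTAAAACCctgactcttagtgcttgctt
Csta1, chr16:36131190-36131389, minus strand: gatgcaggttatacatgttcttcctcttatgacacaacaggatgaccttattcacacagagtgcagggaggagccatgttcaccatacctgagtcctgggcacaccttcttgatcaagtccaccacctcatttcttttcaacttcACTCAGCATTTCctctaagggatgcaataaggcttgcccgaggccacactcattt

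The near word, ACCTTTAAAACC, was found in 9 of the 12 upstream windows that the table gives for 11 genes of the block, and in 11 of 32851 windows of the whole table (0.0335%), both strands searched over 250 bases. The other carriers were Cdc42ep4 and the predicted gene Gm39539. Its first base lay at -33 from the start of Stfa1, -32 of Stfa2, -34 of Stfa3 and -32 of Cstdc4, counting the base before the start as -1. In Csta3 it lay at -80. It contains the letters TTTAAA, which 11 of the 12 windows and 12.1% of all windows held. The far word, ACTCAGCATTTC, was found in 9 of the 12 windows and in 9 windows in all (0.0274%), so that within the table it occurred in this block alone. It began at -142 in Stfa1, -143 in Stfa2, -144 in Stfa3 and -189 in Csta3, and at -55 in Csta1. A word shifted by a single base from the far one, CTCAGCATTTCC, was also in 9 windows of the block and in 11 in all, and the rarer of these overlapping words is the one marked. The words were picked after reading the windows, and copies that arose from each other share letters by descent.

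Whole windows were also alike. Over 250 bases the Stfa1 and Stfa3 windows were 83.5% identical, Stfa1 and Stfa2 81.0%, and Stfa2 and Stfa3 80.4%. The closest pair was Stfa2 and Stfa2l1, at 89.4%. The Csta2 window had the lowest median identity to the others, 47.3%, and held neither word, and Csta1 followed with 48.7%. Each window was cut at its annotated start, so these identities also depend on where that start is placed. The far word began at -55 in Csta1, against -142 in Stfa1, and identity after shifting the windows was not computed. The consensus half-site of the vitamin D receptor, AGGTCA, occurred in the Csta1, Csta2 and Stfa2 windows, where 14.0% of all windows hold it, and a direct repeat with a spacer of any 3 bases, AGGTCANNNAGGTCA, in none of the 12 (2 windows in the table, 0.00609%). The AP-1 letters TGANTCA were in a single window of the block, at 1 of the 2 annotated Cstdc3 starts, against 6.75% of all windows. A letter match is not a binding site.

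All 8 detected stefin A probes read higher in the pool labelled KO, and 4 of them passed a 1.5-fold limit: Stfa2, Cstdc4, Csta3 and Cstdc6. Over all detected probes 3.02% passed that limit as higher, and 48.6% read higher at all. On the background-corrected, quantile normalized log2 scale the 7 detected genes, each by its brightest probe, had a median change of 0.61, where the median of all 8865 detected genes was 0.0017. The gene count was 4 higher and 0 lower, beside 3.1% and 2.28% of all detected genes. Since the group was proposed with these arrays in view, nothing is read from that contrast. Probe signals also depend on the probe's own sequence, so levels are not ranked between genes. In pooled tissue RNA a different number of cells of a type and a different amount of RNA per cell cannot be told apart.

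**Figure D1:**
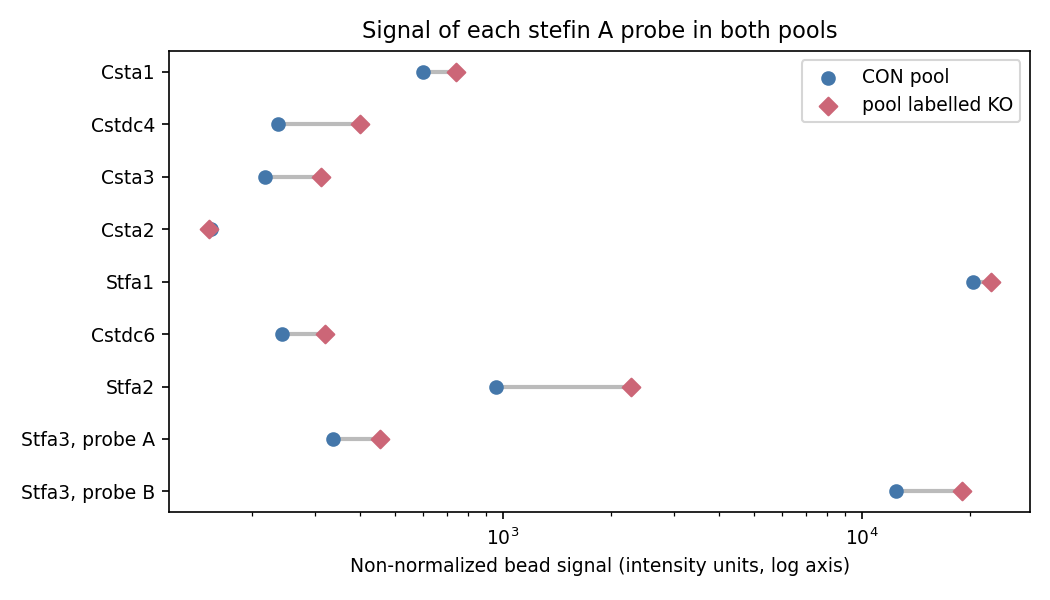
Non-normalized bead signal (intensity units, log axis) of the 9 stefin A probes in the CON pool (circles) and the pool labelled KO (diamonds), 1 pool each, genes in chromosomal order. The KO signal is to the right of CON for 8 probes, from 957.2 to 2273.9 for Stfa2, and at 154.0 and 151.6 for Csta2 the points nearly coincide.

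Among the stefins proper, Stfa2 changed most. It read 957.2 in CON and 2273.9 in KO, a 2.51-fold rise after normalization (log2 change 1.33) and a 2.23-fold rise in the authors' normalized values. It was the sole member past 2-fold in both sets of values. Detected probes were split into 10 equal classes by mean signal, and in the class of Stfa2 1.34% were 1.5-fold higher.

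Stfa1, a classic stefin A paralogue of the mouse, had a high raw signal in both pools, 20431.3 in CON and 22837.8 in KO. Its change of 0.19 on the log2 scale (1.14-fold) was inside the range of -0.26 to 0.27 that held the middle of its signal class, from the 5th to the 95th percentile. In raw units the difference was 2406.5. The highest signal of any probe was 35931.3 in CON and 35763.7 in KO, so Stfa1 sat in the upper part of the array's range, and whether the bead signal is compressed there was not tested. By probe signal alone, which does not rank RNA levels between genes, annexin A2 (Anxa2), a calcium-dependent membrane-binding protein, and the ribosomal protein genes Rps7 and Rpl23a had the closest pairs of values to Stfa1, at distances of 0.057, 0.079 and 0.10 in log2 units over the 2 pools.

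Stfa3 was measured by 2 probes that differed widely in brightness but little in change on the background-corrected scale. Probe A, designed on the current RefSeq transcript, read 335.9 in CON and 455.4 in KO, which is 1.48-fold or 0.57 in log2 units. Probe B, designed on a predicted transcript that the RefSeq table no longer lists, read 12452.3 and 18985.0, a log2 change of 0.58 (1.49-fold). The brighter of them, B, stands for Stfa3 in the gene counts. On the background-corrected scale both probes were just inside the 1.5-fold limit, which is 0.585 in log2 units. Cstdc6, at 0.61, was just outside it. Probe B was tied to Stfa3 by its array symbol alone, and the table also gives Stfa3 as an older name of Stfa1, so which copy it reads is uncertain. In its signal class the 95th percentile of change was 0.27.

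**Figure D2:**
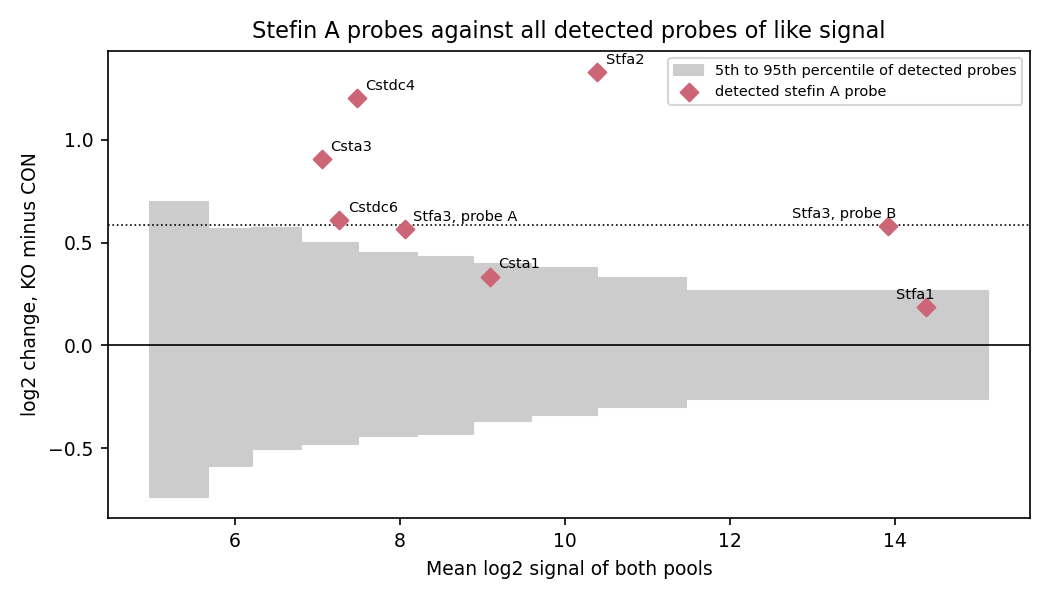
Log2 change (KO minus CON) of the 8 detected stefin A probes (diamonds) against their mean log2 signal; the grey band spans the 5th to 95th percentile of all detected probes in each of the 10 signal classes, and the dotted line is 1.5-fold. Stfa1 and Csta1 lie inside the band, and the other 6 probes lie above it, with Stfa2 at 1.33 highest.

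The newer named copies, whose products are known mainly as predicted stefins, had signals closer to background. Cstdc4 read 236.4 in CON and 400.6 in KO, a 2.30-fold rise (log2 change 1.20), and 1.59-fold in the authors' values. Csta3 read 217.1 and 312.3, a 1.87-fold rise that was 1.37-fold in the authors' values, under the limit. Cstdc6 read 243.3 and 320.7, a 1.52-fold rise that was 1.25-fold there. In their shared signal class 3.78% of detected probes were 1.5-fold higher. The median of all probes was 153.6 in CON and 158.5 in KO, so these signals were near background and their folds depended on the background model. KO stayed above CON for all 3 on each scale tried.

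Csta1, listed as Csta on the array, read 599.5 in CON and 742.9 in KO. Its log2 change of 0.33 (1.26-fold) was below the limit and inside the range of its signal class, -0.37 to 0.39. Csta2 was below detection in both pools, with raw signals of 154.0 and 151.6 and detection p-values of 0.045 and 0.13. It was the only member with the lower value in KO.

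**Figure D3:**
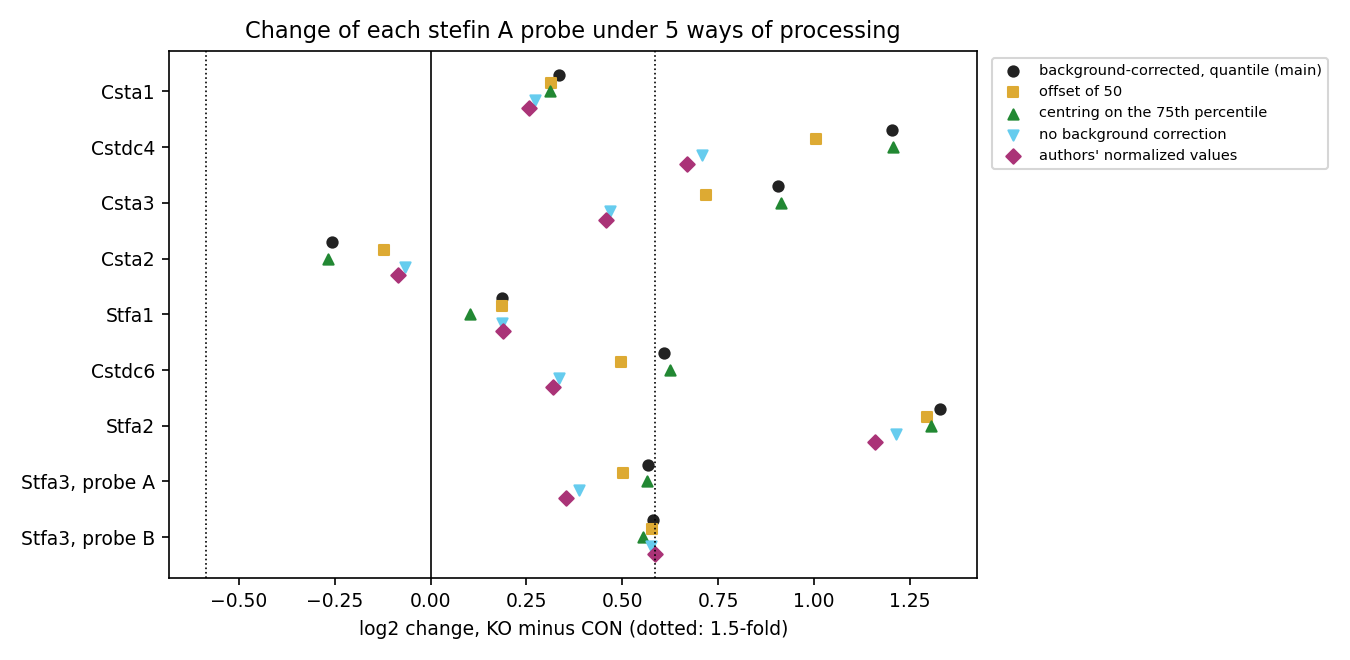
Log2 change (KO minus CON) of the 9 stefin A probes under 5 ways of processing the same arrays; dotted lines mark 1.5-fold in either direction. Stfa2 lies between 1.16 and 1.33 and Cstdc4 between 0.67 and 1.21, both above the line throughout, while Csta3 and Cstdc6 cross it.

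The processing moved the dim members most. On the authors' scale, from which no background was subtracted, the probes past 1.5-fold were Stfa2, Cstdc4 and, at 0.59 in log2 units, Stfa3 probe B, which makes 3 of 8 beside 0.445% of all detected probes. At a 2-fold limit on the background-corrected scale 2 probes passed, Stfa2 and Cstdc4, beside 0.412%. The sign of the change was the same for each of the 8 detected probes on all 5 scales. Stefin A genes are closely related, and signal shared between copies on one probe was not tested, since probe sequences were not used here.

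In chromosomal order the block ran Csta1, Stfa2l1, Cstdc4, Csta3, Csta2, Stfa1, Cstdc3, Cstdc6, Cstdc5, Gm7260, Stfa2 and Stfa3, 12 protein-coding genes of which 8 were measured. Of the genes past the limit, Cstdc4 and Csta3 lie beside each other near the start, Cstdc6 lies in the middle and Stfa2 near the far end. The next protein-coding gene after Stfa3 is Casr, the calcium sensing receptor named in the series title. Casr was below detection, at 136.9 in CON and 149.0 in KO. The other neighbours after it were Cd86, a costimulatory molecule of antigen-presenting cells, with a log2 change of 0.24, Ildr1, a tricellular junction protein gene, with 0.22, and the peptide transporter gene Slc15a2, which was detected in CON only, with -0.15. Before Csta1, Ccdc58, Fam162a and the importin gene Kpna1 each had a change of 0.19, and Wdr5b -0.11. None of the 8 neighbours passed 1.5-fold, and Casr, being undetected, could not be called. Among all detected genes 3.1% passed as higher and 2.28% as lower, so nothing is read from this count.

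**Figure D4:**
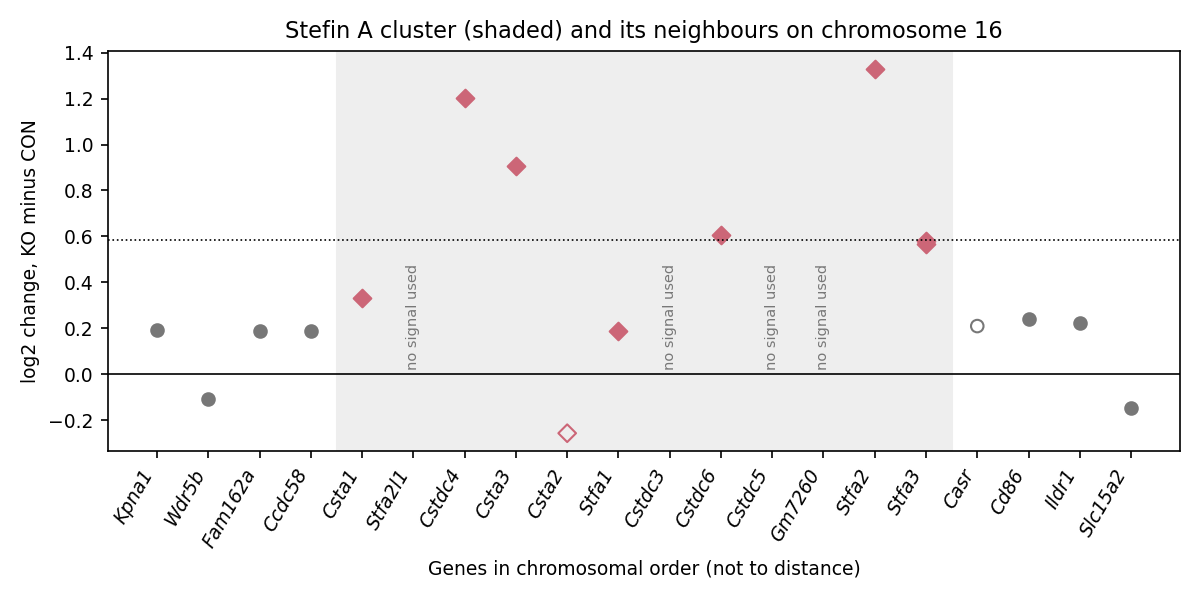
Log2 change (KO minus CON) of stefin A probes (diamonds, shaded) and of the 4 nearest measured genes on each side (circles), in chromosomal order and not to distance; open symbols were below detection in both pools and the dotted line is 1.5-fold. The neighbours lie between -0.15 and 0.24, and 4 genes of the block reach 0.61 or more.

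The papain-like proteases are the targets of stefins. Of 22 cysteine protease genes and relatives 11 were detected, 0 were higher by 1.5-fold and 1 was lower, Tinagl1, a catalytically inactive relative, which read 180.0 in CON and was not detected in KO. It was at least 1.39-fold lower on the background-corrected scale, short of the limit, and its KO to CON ratio in the authors' values was 0.872. Among all detected genes 3.1% passed as higher and 2.28% as lower, and nothing is read from 0 and 1 of 11. The 11 detected genes had a median log2 change of -0.12. Cathepsin B (Ctsb) read 3334.8 in CON and 4108.0 in KO, a change of 0.27, and cathepsin H (Ctsh) 5511.2 and 4876.7, a change of -0.22. Cathepsin L (Ctsl) was dim, at 261.9 and 262.6. Bleomycin hydrolase (Blmh), which degrades filaggrin peptides, and cathepsin C (Ctsc), a dipeptidyl peptidase, had changes of -0.12 and -0.01.

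Inhibitors outside the cluster differed among themselves. Stefin B (Cstb), the other intracellular stefin, read 25443.2 in CON and 25984.5 in KO, with no difference left after normalization (0.00), and cystatin C (Cst3), a secreted inhibitor, 11124.0 and 12320.9, a change of 0.07. Of 6 detected cystatin superfamily genes elsewhere in the genome 3 were counted as higher, Fetub, Ahsg and Kng1, beside 3.1% of all detected genes. None of the 3 was detected in CON, so each entered the count through its KO signal alone. The count of 3 is therefore not read as a result. Fetub read 160.6 in CON and 653.7 in KO, at least 12.4-fold higher once background was subtracted and 3.91-fold higher in the authors' values, which keep it. Ahsg was at least 2.01-fold higher on the first scale and 1.64-fold on the second. Kng1 was at least 1.28-fold and 1.15-fold higher, both under the limit. Cst11 had a change of 0.29. Cst6, which encodes the epidermal cystatin M/E, was below detection in both pools. All 4 Serpinb3 genes, of another inhibitor fold whose human relatives block some cathepsins, passed the limit, with Serpinb3a at 3819.7 in CON and 8495.4 in KO (2.17-fold), Serpinb3b at 2087.1 and 3449.9 (1.66-fold), Serpinb3c at 10.9-fold and Serpinb3d at 3.11-fold. In the authors' values these 4 were 2.14-fold, 1.60-fold, 4.34-fold and 1.60-fold higher. Beside them, 3.1% of all detected genes passed as higher on the background-corrected scale. The Serpinb3 list, too, was chosen with earlier results of these data known, so its count is given as a description.

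Proteins of the cornified envelope, in which human cystatin A is crosslinked, and the transglutaminases Tgm1, Tgm3 and Tgm5 were measured together by 12 genes. Sprr1b and Sprr2d, small proline-rich precursors, rose 1.66-fold and 1.73-fold, 0 were lower by 1.5-fold, and the median log2 change was -0.06. In the authors' values Sprr1b was 1.52-fold higher and Sprr2d, at 1.45-fold, was under the limit. Of the 12 genes 5 read higher in KO, beside 50.2% of all detected genes. On the background-corrected scale 3.1% of all detected genes passed as higher and 2.28% as lower. Loricrin (Lor) read 25539.0 in CON and 25418.7 in KO, filaggrin 2 (Flg2) 12976.3 and 12394.5, periplakin (Ppl) 9759.1 and 9327.0, and involucrin (Ivl) 6967.8 and 5608.5, the last a change of -0.38. Transglutaminase 1 (Tgm1), the main crosslinking enzyme, had a change of -0.08.

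**Figure D5:**
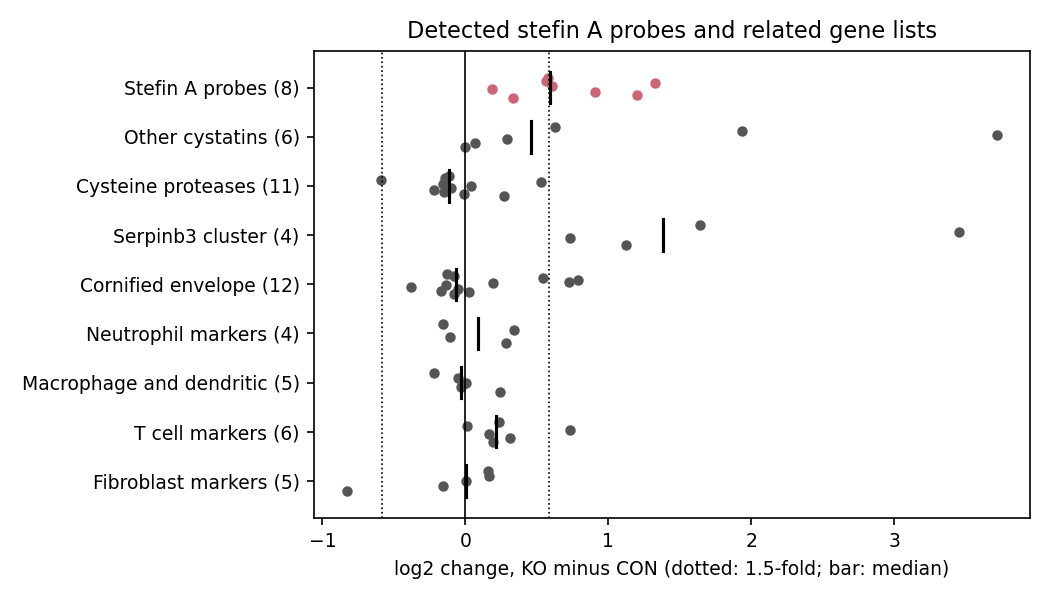
Log2 change (KO minus CON) of the 8 detected stefin A probes and of the detected genes of 8 lists, with the number in brackets, medians as bars and 1.5-fold as dotted lines. The stefin A points lie between 0.19 and 1.33, and the cysteine proteases have a median of -0.12.

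Because stefin A copies are also active in neutrophils, the whole neutrophil and precursor list was read beside them. Of 21 markers measured 4 were detected and 0 passed 1.5-fold, with changes from -0.16 to 0.34. Of all detected genes 3.1% passed as higher and 2.28% as lower, so nothing is read from 0 of 4. The part of neutrophils in the stefin A values was not tested. Elane, Mpo, Prtn3, Ctsg, Ngp, Ltf, Camp, Retnlg, Cxcr2 and Itgam were among the 17 below detection in both pools, with raw signals of at most 156.5 in CON and 160.4 in KO over the 17. S100a8, which keratinocytes also express, read 1639.4 and 2030.2 (log2 change 0.28), S100a9 246.0 and 246.9, Ltb4r1 1194.3 and 1115.4, and Mmp9 198.8 and 227.6. The summed raw signal of the list was 5711.2 in CON and 6058.3 in KO. These sums include the background signal of the 17 undetected genes and the signal of S100a8, so they are not a measure of neutrophils.

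Markers of other cells gave the following values, and their part in the stefin A values was not tested. Of 5 detected macrophage and dendritic cell genes 0 passed, with Cd74 at 7865.6 in CON and 8022.1 in KO and the Langerhans cell gene Cd207 at 1053.2 and 1256.4. All 6 detected T cell genes read higher in KO, with a median of 0.21, and 1 passed, Cd2, at 1.66-fold, which was 1.22-fold in the authors' values. Over all detected genes 50.2% read higher, 3.1% passed as higher and 2.28% as lower. Of 5 detected fibroblast genes Col1a1 passed as lower, from 202.3 to 173.1, and the median was 0.00. Its KO to CON ratio in the authors' values, 0.804, was inside the limit. The haemoglobin gene Hba-a1, the sole detected endothelial or blood gene, was lower, at 783.1 and 546.9, with a ratio of 0.688 in the authors' values, inside the limit, and 0 of 7 mast cell genes were detected. Among 6 detected skeletal muscle genes 3 passed as higher, all at raw signals of no more than 278.6. Myl1 was 3.12-fold higher, and 1.64-fold in the authors' values. Myh8 and Acta1, undetected in CON, were at least 1.53-fold and 1.04-fold higher once background was subtracted, and 1.35-fold and 1.15-fold in the authors' values, under the limit.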

How the data were processed

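Per the file headers, the authors deposited average bead intensity for each probe, non-normalized and on a linear scale, together with its detection p-value, and a second table of normalized intensity, which the series matrix repeats. The submitters' processing notes name GenomeStudio 2011.1. In the normalized table the sorted signals of both arrays agreed within 0.3, as quantile normalization leaves them. Samples were grouped by the genotype in the labels. Non-normalized signals went through neqc in limma 3.58.1 (R 4.3.3): normal-exponential background correction with negative controls inferred from the detection p-values, an offset of 16, quantile normalization and log2. Folds of dim probes depend on this model. A change was called at 1.5-fold. With 1 pool per genotype no test was made. Probes were named through a RefSeq table of GRCm38.p6, 16938 by Entrez identifier, 7420 by accession, 465 by symbol and 552 by synonym, and 322 kept their array name. A gene was represented by its probe of highest mean log2 signal. For genes undetected in 1 of the pools the fold is a lower bound on the background-corrected scale, which widens folds against values that keep the background, and in which the dim value is its own or that array's lowest detected value, whichever is larger. Members were set beside the detected probes of their class, 1 of 10 by mean log2 signal. Promoter windows were aligned globally with Biopython 1.88, and other steps ran in Python 3.11.15. The main steps were tested on simulated data, in which known changes were placed only on probes clearly above background. The recovery of changes in the dimmest probes was therefore not tested.

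The members, lists and alternatives were chosen with earlier results of these data known. The genes named were Vdr, all stefin A probes, in each list the members past 1.5-fold and up to 4 of the highest signal, the 4 nearest measured genes on each side of the cluster, and the 3 genes closest to the brightest stefin A gene. Chosen after their values were seen were Cst6, Ctsl, Cst11, Tgm1, the named neutrophil markers below detection and the carriers of the shared words outside the cluster.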

Additional observations from a re-analysis of the deposited data

How the results depend on the processing

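The count of stefin A probes past 1.5-fold was 4, all higher. It was 2 without background correction and 2 at a 2-fold limit, and the gene count was 2 in both. The share of all detected probes past the limit as higher was 3.02% at 1.5-fold and 0.412% at 2-fold. That share was not computed without background correction, nor for genes at 2-fold. Neither the probe nor the gene count moved by over 1.5 times in the authors' normalized values, with the offset at 50, with centring on the 75th percentile or with the other detection rules. The count over other cystatins and cysteine proteases was 4 and became 2 without background correction, in the authors' normalized values, with the offset at 50 and at a 2-fold limit, and 0 when detection was required in both pools, since that leaves out the genes undetected in 1 pool. Single probes lost the 1.5-fold call in these cases: Cstdc6 at 0.34 without background correction, 0.32 in the authors' values and 0.50 with the offset at 50, and Csta3 at 0.47 and 0.46 in the first and second of these. Stfa3 probe B gained it in the authors' values, at 0.59. No direction turned under the alternatives run for the 9 probes. No replicate could be left out and no paired analysis was possible because each genotype is 1 pool on 1 array. Signal close to the background limits the dim members, whose folds on the authors' scale, which keeps the background, were smaller.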
